A study of Mus musculus with 8 samples.

Results

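Alas1, Alad, Uros, Urod, Cpox, Ppox, Fech, Hmox1 and Blvrb are enzymes that build heme or take it apart. They were chosen by name for this pathway, and they make up 9 of the 34199 genes in the count files. All 9 passed the filter on low counts that kept 13080 genes for testing.

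The study profiled messenger RNA in iGMPs, C57Bl/6 mouse granulocyte-macrophage progenitor cells that are held in self-renewal by HOXA9 fused to an estrogen receptor domain, and asked how loss of the histone chaperone CAF-1 differs from release of HOXA9. Every group has 2 libraries, and all groups grew in medium with stem cell factor. Uninduced cells (0 h) were kept in 150 ng/ml estradiol, which keeps the HOXA9 fusion active. CAF-1 OFF cells stayed in estradiol and received 500 µM IPTG for 48 h to switch on an shRNA against Chaf1b, a subunit of CAF-1. IPTG control cells were given IPTG for 48 h as well, and the labels name neither the dose nor the shRNA in these cells. HOXA9 OFF cells were washed and cultured without estradiol for 48 h, so loss of HOXA9 activity and loss of estradiol itself cannot be told apart. The lines were clonal and also carry a lysozyme-driven GFP reporter. The labels do not say which clone a library came from or whether replicates were separate cultures, so the p-values measure only the spread between these libraries, which may be technical.

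Heme is an iron-holding porphyrin. The pathway starts in the mitochondrion, where ALAS1 (or ALAS2 in red cell precursors) joins glycine and succinyl-CoA in the step that usually sets the rate. ALAD, UROS and UROD act in the cytosol, and CPOX, PPOX and FECH complete the ring and insert iron back in the mitochondrion. Heme oxygenases HMOX1 and HMOX2 open the ring and free its iron, and the biliverdin reductases BLVRA and BLVRB reduce the green pigment that is left. Maturing granulocytes need heme for myeloperoxidase, eosinophil peroxidase and the NADPH oxidase, while macrophages are known for clearing heme with HMOX1.

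Start-site sequences are shown for 4 enzymes whose levels moved in different ways below: Alas1 (higher in HOXA9 OFF cells), Alad and Cpox (lower in HOXA9 OFF cells) and Blvrb (higher in both). Each is 300 bases of RefSeq sequence on GRCm38.p6, written 5′ to 3′ on the gene's strand, with the annotated start 250 bases from the left end. RefSeq windows were found for 7 of the 9 enzymes, 11 windows in all, and each had an exact match in mm9, the build of the counts. Capitals mark the matches to 6 motifs searched on both strands.
Alas1, second annotated start, chr9:106247681-106247980, minus strand: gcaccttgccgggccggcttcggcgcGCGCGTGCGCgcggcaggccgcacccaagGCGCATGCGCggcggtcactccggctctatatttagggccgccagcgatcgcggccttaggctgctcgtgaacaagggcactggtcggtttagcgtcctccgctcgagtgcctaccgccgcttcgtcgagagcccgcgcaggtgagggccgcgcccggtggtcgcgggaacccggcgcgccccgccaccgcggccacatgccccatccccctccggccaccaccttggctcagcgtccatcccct
Alad, second annotated start, chr4:62519860-62520159, minus strand: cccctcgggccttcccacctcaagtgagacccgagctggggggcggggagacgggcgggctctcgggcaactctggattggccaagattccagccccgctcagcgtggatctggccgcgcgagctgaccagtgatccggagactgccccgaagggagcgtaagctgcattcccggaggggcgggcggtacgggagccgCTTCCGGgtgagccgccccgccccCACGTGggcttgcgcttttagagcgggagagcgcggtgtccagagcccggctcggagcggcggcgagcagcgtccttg
Cpox, chr16:58669958-58670257, plus strand: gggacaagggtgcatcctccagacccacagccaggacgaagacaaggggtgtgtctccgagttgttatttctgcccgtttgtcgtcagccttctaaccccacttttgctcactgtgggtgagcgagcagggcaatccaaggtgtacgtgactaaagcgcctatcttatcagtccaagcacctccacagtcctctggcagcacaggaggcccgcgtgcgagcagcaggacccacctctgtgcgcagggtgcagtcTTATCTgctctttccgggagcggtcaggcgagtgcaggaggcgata
Blvrb, first annotated start, chr7:27447728-27448027, plus strand: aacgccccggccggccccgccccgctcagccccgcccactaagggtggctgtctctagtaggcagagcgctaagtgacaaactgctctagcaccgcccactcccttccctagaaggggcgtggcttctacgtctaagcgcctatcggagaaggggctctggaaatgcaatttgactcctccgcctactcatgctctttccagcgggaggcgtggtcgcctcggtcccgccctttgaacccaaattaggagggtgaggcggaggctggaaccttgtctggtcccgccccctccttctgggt

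The Alas1 window shown held the NRF1 motif (GCGCANGCGC) at 224 and 195 bases before the second annotated start. Measured from the first annotated start, the same sites lay at 0 and 29 bases after it. Of the 32851 windows of this length 4.6% held the motif anywhere. The Alad window held an E-box (CACGTG, in 7.15% of windows) at 28 bases before the start and an ETS motif (CCGGAAG, 8.86%) at 52 bases before it, on the other strand. In the Cpox window the reverse complement of a GATA motif (AGATAA, 11.2%) lay 4 bases after the start. Uros had NRF1, E-box and ETS matches at 47, 250 and 21 bases before its start, and Urod had an E-box at 49 bases before it. None of the 6 motifs matched in the Blvrb or Ppox windows, including the antioxidant response element core (TGACNNNGC, 12.4%) and a C/EBP motif (TTGCNNAA, 10.8%). The E-boxes and the Alas1 site at 195 bases matched on both strands. A match describes these letters only and is not a binding site.

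In mm9 the genes lie at chr9:106135786-106150457 (Alas1), chr4:62170203-62180952 (Alad), chr7:140877926-140901755 (Uros), chr4:116662570-116667018 (Urod), chr16:58670321-58680504 (Cpox), chr1:173206121-173211317 (Ppox), chr18:64616204-64648720 (Fech), chr8:77617490-77624495 (Hmox1) and chr7:28232997-28251163 (Blvrb), and all are protein coding. Of the 50-base stretches of each coding transcript, 100% occurred in no protein-coding transcript of another gene for 7 enzymes, with 96.2% for Urod and 99.6% for Cpox. Other kinds of genes were not searched. Ppox shares 791 exon bases with B4galt3 on the opposite strand, and Alas1 shares 114 with 4930500F10Rik. Whether the counting used the strand is not given in the sources used here, so reads in those bases are uncertain.

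Gene counts totalled 14044284 to 22423837 per library. Levels are given as CPM, counts scaled to a common library size by TMM, and 3 counts correspond to 0.128 to 0.212 CPM. Chaf1b, the knockdown target, was lowered to 18.7 and 9.72 CPM by the shRNA, against 95.1 to 102 CPM in the 4 control libraries, and it was also below them in HOXA9 OFF libraries, at 48.3 and 41.0 CPM. HOXA9 inactivation acts on the fusion protein, so Hoxa9 counts do not check it. HOXA9 OFF replicate 2 stood apart from replicate 1 in macrophage markers (C1qc at 946 against 3 counts), and results that change with it are also given without it. A gene was called when the edgeR quasi-likelihood FDR, adjusted over all 13080 genes, was under 0.05 and the change was at least 1.5-fold.

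In HOXA9 OFF cells 4 of the 9 enzymes rose (Alas1, Ppox, Hmox1, Blvrb), 2 fell (Alad, Cpox) and 3 were not called (Uros, Urod, Fech). The transcript of the first step and those of both breakdown enzymes were thus higher, while those of the second step and of coproporphyrinogen oxidase were lower. Of all tested genes 47.2% were called in this comparison, 25.2% higher and 22.1% lower, so a large share of any list would carry a call. In CAF-1 OFF cells 1 of 9 was called, Blvrb, against 14.0% of all genes (10.5% higher and 3.50% lower). The median log2 fold change (log2 FC, treated over uninduced unless stated) of the 9 enzymes was 0.27 in HOXA9 OFF and 0.12 in CAF-1 OFF cells, beside 0.01 for all tested genes in each. Both comparisons use the same uninduced libraries.

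**Figure D1:**
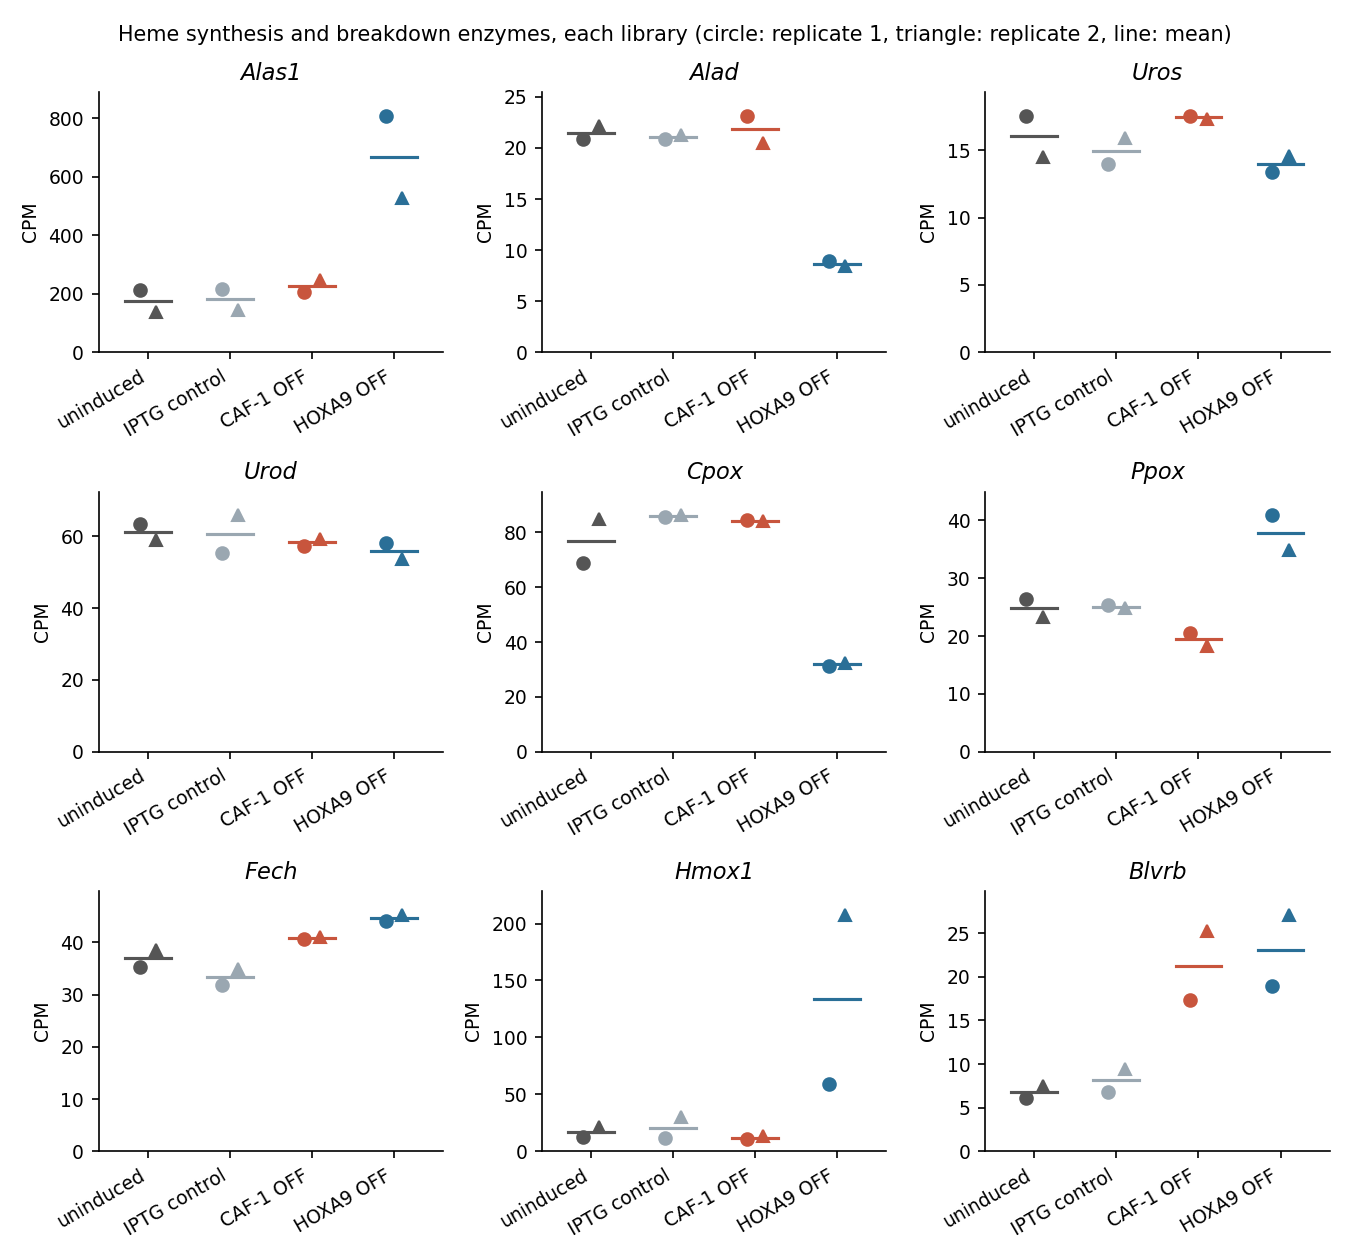
CPM of the 9 enzymes (vertical axes, each from 0) in the uninduced, IPTG control, CAF-1 OFF and HOXA9 OFF groups, with circles for replicate 1, triangles for replicate 2 and lines for the mean of both. Alas1 lies at 808.6 and 527.8 CPM in HOXA9 OFF cells and under 250 in the other libraries, Alad and Cpox are lowest there, and Blvrb is high in both CAF-1 OFF and HOXA9 OFF cells.

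Alas1, the first and usually rate-setting enzyme, stood at 214 and 138 CPM in uninduced, 217 and 146 in IPTG control, 207 and 246 in CAF-1 OFF and 809 and 528 in HOXA9 OFF libraries. Both HOXA9 OFF libraries were above all others, while CAF-1 OFF overlapped the uninduced range. The rise in HOXA9 OFF cells was 3.80-fold (log2 FC 1.93, SE 0.30, edgeR FDR 0.001). The CAF-1 OFF value was a log2 FC of 0.37 (95% interval -0.31 to 1.04, edgeR FDR 0.399). Compared directly, CAF-1 OFF cells had 2.95-fold less Alas1 than HOXA9 OFF cells (log2 FC -1.56, SE 0.30, edgeR FDR 0.00323). In bulk RNA, a change in the share of cells of a type and a change in RNA per cell cannot be told apart.

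Alad makes porphobilinogen in the second step. Its levels were 20.8 and 22.1 CPM in uninduced, 20.9 and 21.2 in IPTG control, 23.2 and 20.5 in CAF-1 OFF and 8.90 and 8.43 in HOXA9 OFF libraries. The HOXA9 OFF pair lay well below the narrow range of the other 6. Alad fell by 1.31 on the log2 scale in HOXA9 OFF cells (SE 0.15, edgeR FDR 0.000198), and its log2 FC in CAF-1 OFF cells was 0.02 (95% interval -0.31 to 0.35, edgeR FDR 0.925). CAF-1 OFF cells kept 2.52-fold more Alad than HOXA9 OFF cells (edgeR FDR 0.00026).

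Cpox, the mitochondrial coproporphyrinogen oxidase, showed the same pattern at a higher level. It was at 68.7 and 85.0 CPM in uninduced, 85.5 and 86.2 in IPTG control, 84.5 and 84.1 in CAF-1 OFF, and 31.1 and 32.5 in HOXA9 OFF libraries. Again the HOXA9 OFF pair stood below the other 6. Cpox fell 2.41-fold there (log2 FC -1.27, SE 0.12, edgeR FDR 1e-04). With CAF-1 depleted it was 0.13 (95% interval -0.15 to 0.41, edgeR FDR 0.459), and the direct contrast put CAF-1 OFF 2.65-fold above HOXA9 OFF (edgeR FDR 0.000105).

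Ppox, which oxidizes protoporphyrinogen to the finished ring, was at 26.4 and 23.2 CPM in uninduced, 25.4 and 24.8 in IPTG control, 20.6 and 18.3 in CAF-1 OFF and 40.9 and 34.8 in HOXA9 OFF libraries. The CAF-1 OFF pair lay below both controls and the HOXA9 OFF pair above them, with no overlap. The change in HOXA9 OFF cells was close to the threshold at 1.53-fold (log2 FC 0.61, SE 0.14, edgeR FDR 0.00731), and the call was lost without uninduced replicate 2 (0.52, edgeR FDR 0.056) or HOXA9 OFF replicate 1 (0.49, edgeR FDR 0.0359), and with library size alone in place of TMM (0.42, edgeR FDR 0.0303). The log2 FC in CAF-1 OFF cells was -0.35 (95% interval -0.68 to -0.02, edgeR FDR 0.118). Set against each other, CAF-1 OFF was 1.95-fold below HOXA9 OFF (edgeR FDR 0.00106). B4galt3, whose exons overlap those of Ppox, was at 10.6 and 11.1 CPM in uninduced and 35.0 and 27.0 in HOXA9 OFF libraries and rose there (log2 FC 1.51, edgeR FDR 0.000298). The part of B4galt3 reads in the Ppox result was not tested.

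Uros, Urod and Fech were not called in any comparison. Uros, which closes the ring, ranged from 13.4 to 17.6 CPM over the 8 libraries, and its HOXA9 OFF pair (13.4 and 14.6) overlapped both controls. Its log2 fold change in HOXA9 OFF cells was -0.20 (95% interval -0.59 to 0.19, edgeR FDR 0.346). Urod, the next decarboxylase, ranged from 53.7 to 65.9 CPM, with intervals of -0.41 to 0.15 in HOXA9 OFF and -0.35 to 0.21 in CAF-1 OFF cells. These intervals leave out a 1.5-fold change of Urod in either direction.

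Fech inserts the iron. It was at 35.3 and 38.6 CPM in uninduced, 31.9 and 34.9 in IPTG control, 40.7 and 41.1 in CAF-1 OFF and 44.1 and 45.3 in HOXA9 OFF libraries. Both treated pairs were above both control pairs without overlap, but the size was small. The log2 fold change was 0.27 in HOXA9 OFF cells (95% interval 0.02 to 0.53, edgeR FDR 0.0641) and 0.15 in CAF-1 OFF cells (-0.11 to 0.40, edgeR FDR 0.376), neither of which passed.

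Hmox1, the inducible heme oxygenase, had the largest fold change among the 9 enzymes in HOXA9 OFF cells and also the widest spread, although Alas1 changed more (2.2 on the log2 scale) once HOXA9 OFF replicate 2 was left out. Its levels were 12.2 and 21.3 CPM in uninduced, 11.8 and 29.7 in IPTG control, 10.8 and 13.2 in CAF-1 OFF and 59.3 and 208 in HOXA9 OFF libraries. Both HOXA9 OFF libraries were above the other 6, and they differed from each other more than 3-fold by the values given. Hmox1 rose 7.97-fold in HOXA9 OFF cells (log2 FC 2.99, SE 0.65, edgeR FDR 0.00519). Without HOXA9 OFF replicate 2 the log2 fold change was 1.82 (edgeR FDR 0.014), and without replicate 1 it was 3.63 (edgeR FDR 0.00051). In CAF-1 OFF cells it was -0.48, with a wide 95% interval of -1.96 to 0.99 (edgeR FDR 0.617). Directly compared, CAF-1 OFF was 11.1-fold below HOXA9 OFF (log2 FC -3.48, SE 0.67, edgeR FDR 0.00343), or -2.32 on the log2 scale without HOXA9 OFF replicate 2.

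Macrophage markers moved with Hmox1 across the HOXA9 OFF libraries. The summed level of the 11 macrophage genes was 1010 CPM in HOXA9 OFF replicate 1 and 1705 in replicate 2, against 34.4 to 84.7 in the other 6 libraries. Of 6 tested markers 5 rose in HOXA9 OFF cells (Emr1, Csf1r, Cd68, C1qb and Mrc1), beside 25.2% of all genes. In CAF-1 OFF cells 1, Csf1r, rose, beside 10.5% of all genes. Cd68 was at 47.3 CPM in HOXA9 OFF replicate 1 and 234 in replicate 2, and C1qb at 0.434 and 121. C1qa had 0 and 89 counts in these libraries, Mertk had 2 and 19, and Spic, a marker of red pulp macrophages, had 0 counts in every library. Emr1, which encodes F4/80, went the other way between the replicates, at 494 and 437 CPM. Without HOXA9 OFF replicate 2, 3 of the 6 markers were called higher (Csf1r, Cd68 and Emr1) and 1 lower (Cd163), while C1qb (log2 FC 2.24, edgeR FDR 0.188) and Mrc1 (2.09, edgeR FDR 0.125) were not called. The part of such cells in the Hmox1 result was not tested.

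Ferritin, which stores the iron that heme oxygenase frees, differed between the same libraries. Ftl1 was at 102 and 111 CPM in uninduced libraries and at 330 and 627 in HOXA9 OFF replicates 1 and 2, and it rose there (log2 FC 2.17, SE 0.29, edgeR FDR 0.000435; 1.63 without replicate 2, edgeR FDR 0.000154). Fth1 was at 1005 and 1299 CPM in uninduced libraries and at 827 and 3700 in the HOXA9 OFF libraries, so that the HOXA9 OFF pair lay on both sides of the uninduced pair (log2 FC 0.97, edgeR FDR 0.176). Leaving out HOXA9 OFF replicate 2 turned the Fth1 value to -0.48 (edgeR FDR 0.111).

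**Figure D2:**
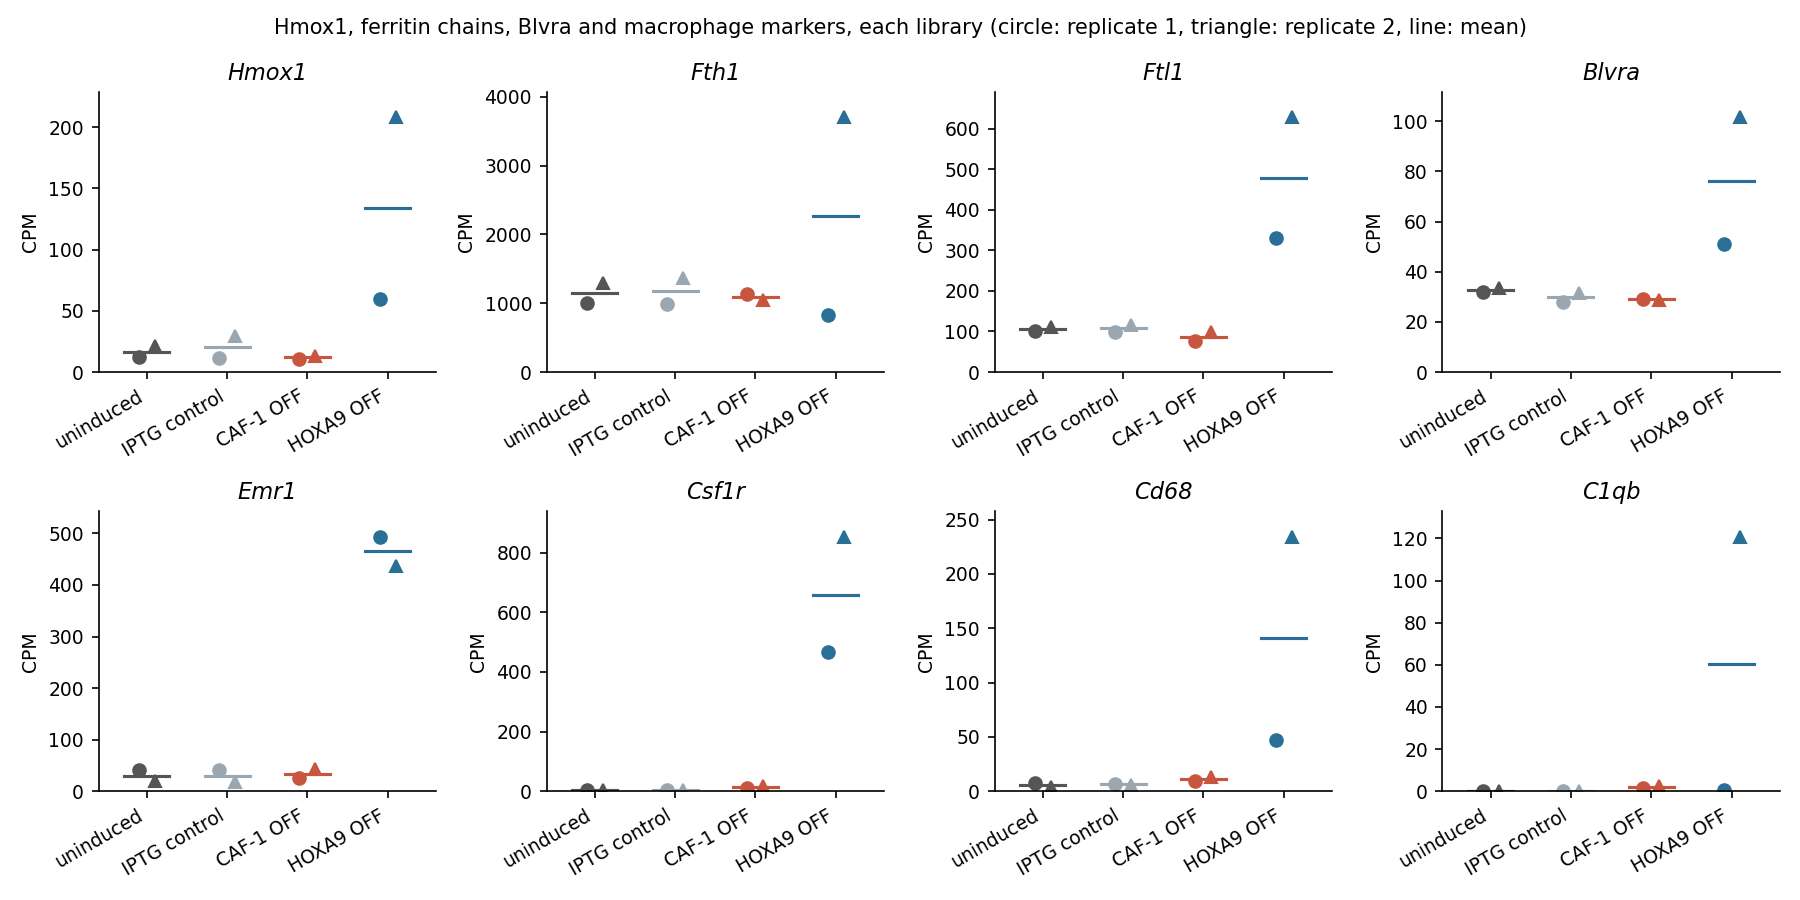
CPM (vertical axes, each from 0) of Hmox1, the ferritin chains Fth1 and Ftl1, Blvra and the macrophage markers Emr1, Csf1r, Cd68 and C1qb in each library, with circles for replicate 1, triangles for replicate 2 and lines for the mean of both. In HOXA9 OFF cells replicate 2 is above replicate 1 for every gene shown except Emr1 (494 and 437 CPM), and C1qb is near 0 in replicate 1.

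Blvrb, the biliverdin and flavin reductase, was the enzyme called in both conditions. It was at 6.10 and 7.53 CPM in uninduced, 6.85 and 9.45 in IPTG control, 17.4 and 25.2 in CAF-1 OFF and 19.0 and 27.1 in HOXA9 OFF libraries. All 4 treated libraries were above all 4 control libraries. Blvrb rose 3.12-fold in CAF-1 OFF cells (log2 FC 1.64, SE 0.28, edgeR FDR 0.011) and 3.38-fold in HOXA9 OFF cells (log2 FC 1.76, SE 0.28, edgeR FDR 0.00123). Against IPTG control the CAF-1 OFF rise was 2.61-fold (log2 FC 1.38, edgeR FDR 0.0191), a call that was lost without IPTG control replicate 1 (1.15, edgeR FDR 0.117), IPTG control replicate 2 (1.63, edgeR FDR 0.0767) or CAF-1 OFF replicate 2 (1.09, edgeR FDR 0.137). The direct contrast of CAF-1 OFF with HOXA9 OFF gave -0.12 on the log2 scale (95% interval -0.75 to 0.52, edgeR FDR 0.743). Without CAF-1 OFF replicate 2 the CAF-1 OFF call was lost (1.35, edgeR FDR 0.0863), as it was without uninduced replicate 1 (1.49, edgeR FDR 0.0875).

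Against IPTG control, which shares IPTG with CAF-1 OFF cells, 1 of the 9 enzymes was called, beside 12.8% of all genes (9.56% higher). Between CAF-1 OFF and HOXA9 OFF cells 5 of 9 were called, beside 43.5% of all genes: Alad and Cpox were higher in CAF-1 OFF cells (22.2% of genes were) and Alas1, Ppox and Hmox1 lower (21.4%). In IPTG control against uninduced cells edgeR called 0 of the 9 and 0% of all genes, with 0 of the 9 and 100 of all genes under an unadjusted p of 0.05, and DESeq2 called 0 of the 9 and 5 of all genes.

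Other enzymes act beside these. Alas2, the erythroid first enzyme, had 0 to 4 counts per library and was not tested. Hmox2, the constitutive heme oxygenase, was at 76.8 and 61.0 CPM in uninduced and 51.5 and 45.4 in CAF-1 OFF libraries (log2 FC -0.51, edgeR FDR 0.0418). This passed the FDR but was short of 1.5-fold, and its log2 fold change in HOXA9 OFF cells was 0.07 (95% interval -0.26 to 0.40). Hmox2 shares 892 exon bases with 5730403B10Rik on the opposite strand, so its reads there are uncertain too. Blvra, the main adult biliverdin reductase, was at 31.9 and 33.6 CPM in uninduced, 29.0 and 28.9 in CAF-1 OFF and 51.1 and 102 in HOXA9 OFF libraries. It rose in HOXA9 OFF cells (log2 FC 1.22, SE 0.28, edgeR FDR 0.00666) and differed between the treatments (CAF-1 OFF minus HOXA9 OFF -1.40, edgeR FDR 0.00418). Without HOXA9 OFF replicate 2 these were 0.64 (edgeR FDR 0.0055) and -0.83 (edgeR FDR 0.00198). Of the reductases, Blvrb was thus called in both treated groups and Blvra in HOXA9 OFF cells.

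**Figure D3:**
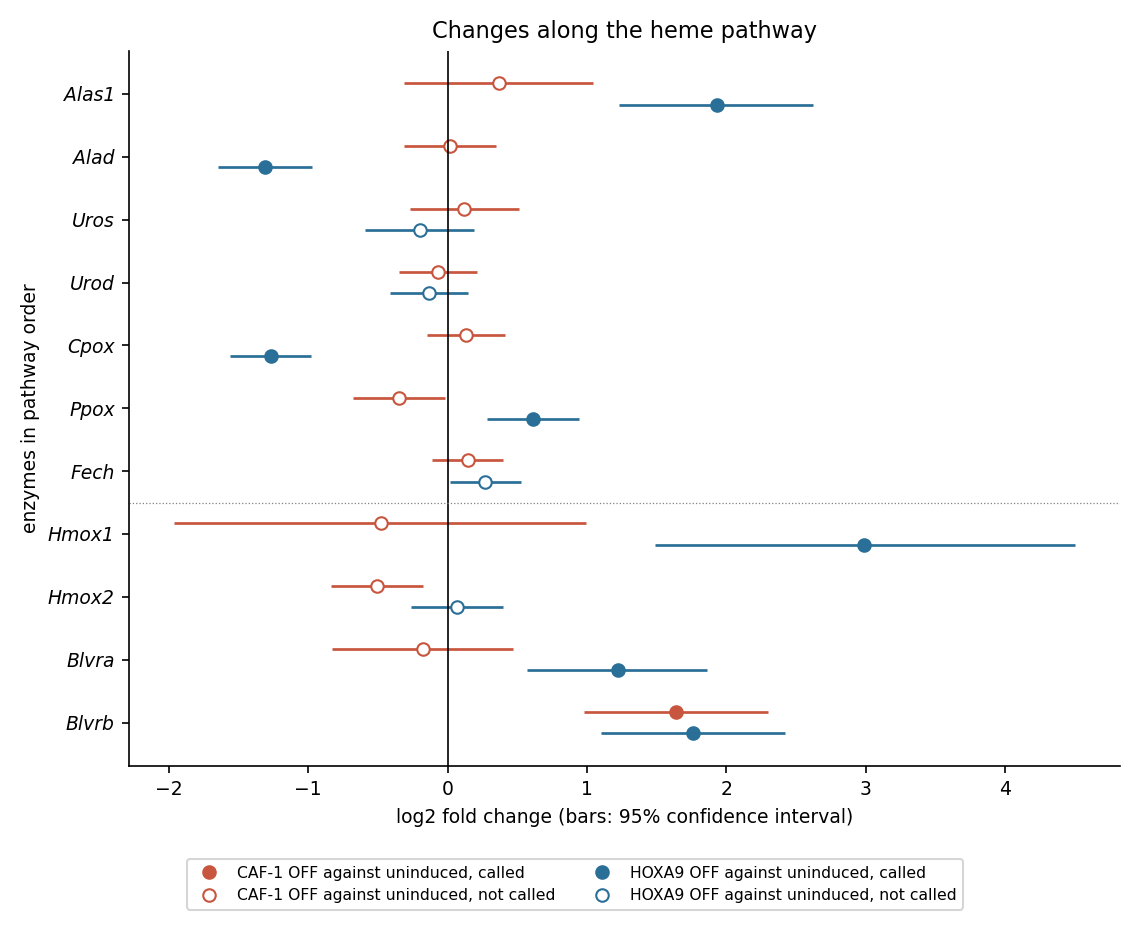
Log2 fold change against uninduced cells (horizontal axis) with 95% confidence intervals for the enzymes in pathway order, synthesis above the dotted line and breakdown below it, for CAF-1 OFF (red) and HOXA9 OFF (blue), with filled points for called changes. HOXA9 OFF points run from -1.31 (Alad) to 2.99 (Hmox1), and the filled CAF-1 OFF point is Blvrb at 1.64.

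Levels were compared between enzymes per kilobase of the longest coding transcript. In uninduced cells Alas1 led with 57.0 CPM per kilobase (SD 17.6, n = 2), followed by Urod (41.1), Cpox (24.1) and Alad (17.2). Ppox (13.6), Fech (12.7), Hmox1 (10.4) and Uros (9.10) overlapped their neighbours in that order, and Blvrb (6.63) was lowest by this length. In CAF-1 OFF cells Alas1 (73.4), Urod (39.2) and Cpox (26.5) kept the first 3 places and Blvrb reached 20.7, overlapping Alad (17.5), while Hmox1 (7.46) was lowest. In HOXA9 OFF cells Alas1 was at 216 (SD 64.3), Hmox1 at 83.2 (SD 65.4) and Urod at 37.5, and the last pair overlapped. Cpox (9.99), Uros (7.94) and Alad (6.95) were the lowest there, each below its neighbour in both libraries at this length. With the union of all exons as length, Cpox (24.1) was above Urod (23.6) in uninduced cells, Uros (4.49) was below Blvrb (4.82), Fech (12.7) was above Alad (11.5), and Ppox was at 5.50, below Fech and Hmox1. By that length Ppox (8.39) was below Fech (15.4) and Cpox (9.99) and Uros (3.91) below Alad (4.63) in HOXA9 OFF cells, while Alas1 was first in both groups and Hmox1 second in HOXA9 OFF cells.

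The ratio of Alas1 to Alad per kilobase, the first enzyme over the second, was 4.16 and 2.51 in uninduced, 4.18 and 2.78 in IPTG control and 3.61 and 4.85 in CAF-1 OFF libraries. It was 36.7 and 25.3 in HOXA9 OFF libraries, far above the other 6. Hmox1 to Fech, the heme-opening enzyme over the one that completes heme, went from 0.621 and 0.999 in uninduced to 2.43 and 8.28 in HOXA9 OFF libraries, and was 0.669 and 1.54 in IPTG control and 0.479 and 0.579 in CAF-1 OFF libraries. These ratios restate the levels above and were not tested.

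**Figure D4:**
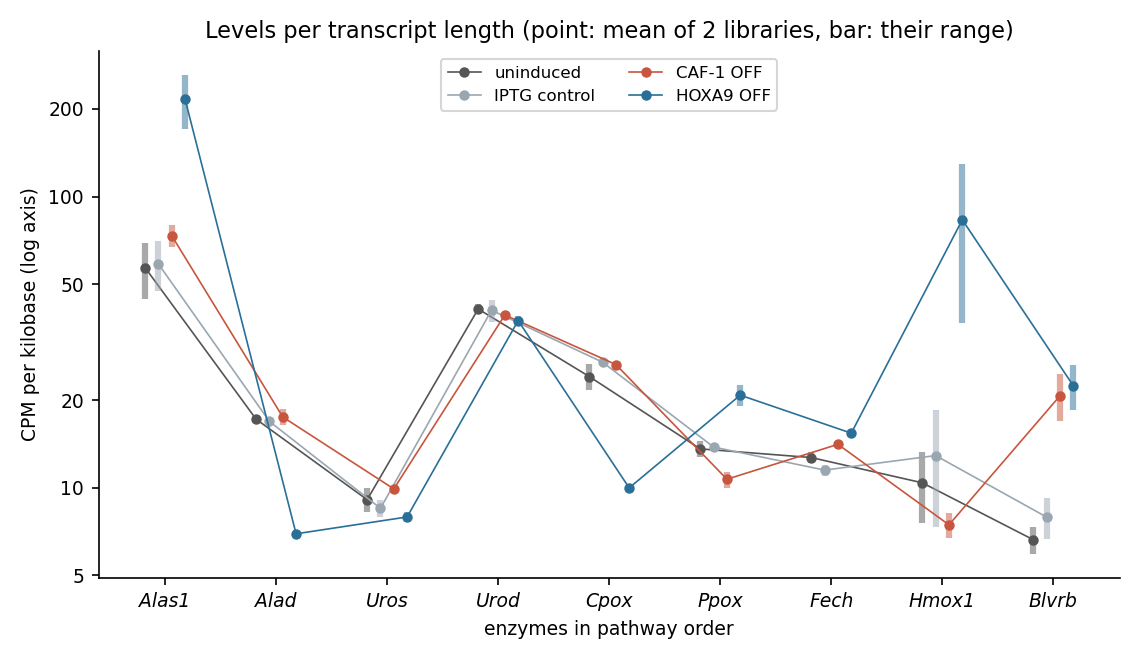
CPM per kilobase of transcript (log axis) of the 9 enzymes in pathway order, with points for the mean of 2 libraries, thick bars for their range and lines joining the enzymes of a group. Alas1 is highest in every group, at 57.0 in uninduced and 216 in HOXA9 OFF cells, and the HOXA9 OFF line dips at Alad (6.95) and Cpox (9.99).

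Heme and porphyrin transport and handling genes gave 4 higher and 3 lower of 14 tested in HOXA9 OFF cells. Of all genes 25.2% were higher and 22.1% lower there. After CAF-1 depletion 1 was higher and 3 lower (1 and 2 against IPTG control), beside 10.5% and 3.50% of all genes. Abcb6, a porphyrin transporter, was at 46.2 and 53.4 CPM in uninduced libraries and fell to 15.2 and 18.8 in HOXA9 OFF libraries (log2 FC -1.55, edgeR FDR 0.000172). Slc25a39, a mitochondrial carrier, was at 263 and 254 CPM in uninduced and 165 and 170 in CAF-1 OFF libraries (log2 FC -0.62, edgeR FDR 0.00724). Its HOXA9 OFF libraries were nearly as low, at 175 and 184 CPM, but the change missed 1.5-fold (-0.52, edgeR FDR 0.00198), and the direct contrast of the treatments was -0.10 (edgeR FDR 0.39). Tspo, a porphyrin-binding protein of the outer mitochondrial membrane, fell after CAF-1 depletion (log2 FC -0.61, edgeR FDR 0.0146, but -0.55 and under 1.5-fold against IPTG control) and rose in HOXA9 OFF cells (0.98, edgeR FDR 0.000255). Lrp1, the receptor for heme bound to hemopexin, rose in both, from 6.14 and 9.54 CPM to 19.7 and 31.4 in CAF-1 OFF and 80.1 and 170 in HOXA9 OFF libraries (log2 FC 3.99, or 3.35 without HOXA9 OFF replicate 2). Clpp, the mitochondrial protease, fell in both (log2 fold changes -0.60 and -1.62). Without HOXA9 OFF replicate 2 the HOXA9 OFF counts were 3 higher and 4 lower.

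Of 18 tested iron genes 6 were higher and 4 lower in HOXA9 OFF cells, beside 25.2% and 22.1% of all genes. CAF-1 OFF cells had 2 higher and 1 lower (1 and 1 against IPTG control), beside 10.5% and 3.50% of all genes. Tfrc, the transferrin receptor, fell from 677 and 569 CPM to 392 and 287 in HOXA9 OFF libraries (log2 FC -0.88, edgeR FDR 0.00488), with a log2 fold change of -0.05 in CAF-1 OFF cells. Steap3, the endosomal iron reductase, fell in both groups (-1.11 with edgeR FDR 0.0243 in CAF-1 OFF and -1.68 with edgeR FDR 0.00103 in HOXA9 OFF cells). Ncoa4, the receptor for ferritin breakdown, rose in HOXA9 OFF cells (1.05, edgeR FDR 0.00123), as did Slc11a1, a phagosomal metal transporter (3.51, edgeR FDR 0.000296, or 2.92 without HOXA9 OFF replicate 2). The iron counts were 6 higher and 4 lower without that library too.

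Iron-sulfur cluster genes called against uninduced cells were all lower. In HOXA9 OFF cells 6 of 14 were lower and 0 higher, beside 22.1% of all genes lower. The median log2 fold change was -0.42. In CAF-1 OFF cells 3 of 14 were lower (2 against IPTG control) and 0 higher, beside 3.50% of all genes lower. The median there was -0.24. Hspa9, the mitochondrial chaperone of cluster transfer, was at 1245 and 1507 CPM in uninduced, 783 and 752 in CAF-1 OFF and 274 and 454 in HOXA9 OFF libraries. It fell in both (log2 fold changes -0.84 and -1.92, edgeR FDR 0.0397 and 0.000321). Fdxr, the reductase that feeds ferredoxins, fell in both as well (-0.91 and -1.34), as did Fdx1l (-0.63 and -1.33), which was not called in CAF-1 OFF against IPTG control (-0.55, edgeR FDR 0.07). Lyrm4, a partner of the cysteine desulfurase, fell in HOXA9 OFF cells (-1.33, edgeR FDR 0.000412). Nfu1 went the other way, from 48.6 and 47.7 CPM in uninduced to 68.1 and 69.9 in HOXA9 OFF libraries. This change missed 1.5-fold (0.52, edgeR FDR 0.00443). Between the treatments Nfu1 was called lower in CAF-1 OFF than in HOXA9 OFF cells (-1.06, edgeR FDR 0.000194), while 5 genes of the list were called higher.

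Among 14 tested regulators of heme genes, Bach1, a repressor that heme binds and that holds Hmox1 down, rose in both groups. It was at 111 and 108 CPM in uninduced, 171 and 203 in CAF-1 OFF and 222 and 206 in HOXA9 OFF libraries (log2 fold changes 0.77 and 0.96, edgeR FDR 0.0073 and 0.000274). Its small partner Mafg rose in HOXA9 OFF cells (1.11, edgeR FDR 0.000128), and so did Eif2ak1, the heme-regulated kinase of translation (0.87, edgeR FDR 0.000197). Nrf1, which encodes the factor of the motif shown at Alas1, fell after CAF-1 depletion (-0.68, edgeR FDR 0.014) and missed 1.5-fold in HOXA9 OFF cells (-0.46, edgeR FDR 0.0165). Ppargc1b, a coactivator of mitochondrial genes, fell from 11.0 and 10.8 CPM to 0.977 and 1.59 in HOXA9 OFF libraries (-3.07, edgeR FDR 5.93e-05). Of all tested genes 25.2% were called higher and 22.1% lower in HOXA9 OFF cells, and 10.5% and 3.50% in CAF-1 OFF cells. In all 5 regulators were higher and 2 lower in HOXA9 OFF cells, with 2 higher and 1 lower on the CAF-1 OFF side, and 4 were higher and 3 lower in HOXA9 OFF cells without replicate 2.

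Of 15 tested NRF2 and BACH1 target genes outside the 9 enzymes, 4 were higher and 3 lower in HOXA9 OFF cells. Of all genes 25.2% were higher and 22.1% lower there. On the CAF-1 OFF side 3 were higher and 0 lower, beside 10.5% and 3.50% of all genes. Gsr (glutathione reductase, 2.06) and G6pdx (2.27) rose in HOXA9 OFF cells, while Slc7a11, the cystine carrier, fell there (-1.25, edgeR FDR 0.000796) and rose in CAF-1 OFF cells (1.01, edgeR FDR 0.0125). Gclc, the rate-setting enzyme of glutathione synthesis, fell in HOXA9 OFF cells (-0.92, edgeR FDR 0.00046). Without HOXA9 OFF replicate 2, 4 were higher and 4 lower. The called target genes thus went in both directions in HOXA9 OFF cells, as did all tested genes.

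Proteins that use heme gave 8 higher and 2 lower of 18 tested in HOXA9 OFF cells, beside 25.2% and 22.1% of all genes. After CAF-1 depletion 2 were higher and 0 lower, beside 10.5% and 3.50% of all genes. Cybb, the heme-holding chain of the NADPH oxidase, went from 0.312 and 0.171 CPM in uninduced to 7.32 and 24.6 in CAF-1 OFF and 721 and 391 in HOXA9 OFF libraries. Epx, eosinophil peroxidase, was at 4.90 and 1.88 CPM in uninduced and 422 and 252 in HOXA9 OFF libraries (log2 FC 6.64, edgeR FDR 6.59e-05). Mpo, the myeloperoxidase gene, was at 6449 and 3988 CPM in uninduced, 7749 and 7807 in CAF-1 OFF and 3625 and 2559 in HOXA9 OFF libraries. Its log2 FC of -0.76 in HOXA9 OFF cells did not pass (edgeR FDR 0.0506), nor did its 0.58 after CAF-1 depletion (edgeR FDR 0.181). The list's summed level was 8895 and 6254 CPM in uninduced and 7731 and 6273 in HOXA9 OFF libraries, which overlapped. Mpo was the largest part of this sum in each library, so the sum does not show how the other genes moved. Without HOXA9 OFF replicate 2 the counts were 8 higher and 4 lower. Cyc1, the cytochrome c1 of the respiratory chain, fell in HOXA9 OFF cells (-1.31, edgeR FDR 2.95e-05).

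**Figure D5:**
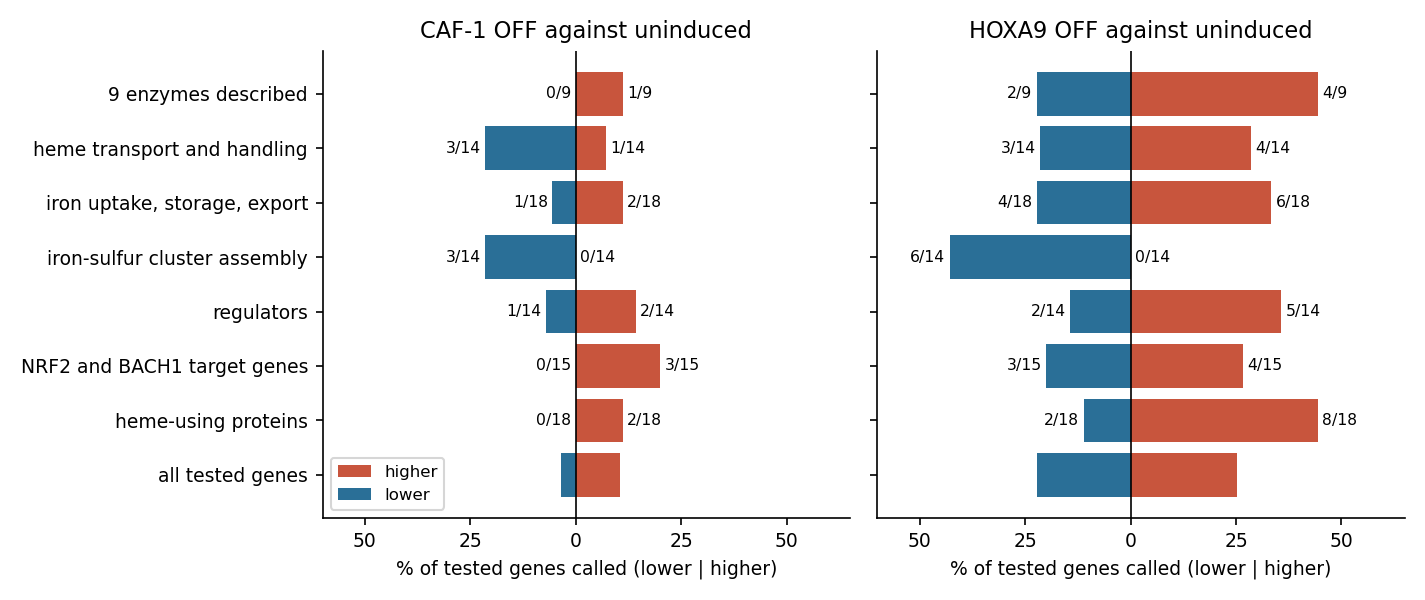
Percentage of tested genes called higher (red, to the right) or lower (blue, to the left) against uninduced cells for the 9 enzymes, 6 related lists and all tested genes, with counts beside the bars. In HOXA9 OFF cells the iron-sulfur list has 6 of 14 lower and 0 higher, beside 22.1% lower and 25.2% higher among all genes.

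Erythroid markers stayed low throughout, with summed levels of 5.09 to 23.1 CPM over 13 genes. Hba-a2, Slc4a1 and Car1 had 0 counts in every library, and Hba-a1 and Hbb-b1 had at most 1. Of 6 tested erythroid genes 4 rose in CAF-1 OFF cells (3 against IPTG control), Hbb-b2, Epor and Epb4.2 among them, from low counts: Hbb-b2 had 34 and 22 in these libraries and 3 and 6 in the uninduced libraries. HOXA9 OFF cells had 1 of 6 higher and 0 lower. The gene called was Gata1, an erythroid factor that eosinophils and mast cells also use, at 19.6 and 10.8 CPM against 5.30 and 1.84 in uninduced libraries (log2 FC 2.09, edgeR FDR 0.0145). Granulocyte markers rose in both groups, 7 of 9 in CAF-1 OFF and 9 of 9 in HOXA9 OFF cells. Of 8 progenitor markers 4 fell in HOXA9 OFF cells, Kit and Cd34 among them, and 1 rose (Ms4a3, log2 FC 1.19, edgeR FDR 0.0117). After CAF-1 depletion 0 fell and 1 rose (Elane, 1.61, edgeR FDR 0.0334). For each of these marker lists, the shares of all genes were 25.2% higher and 22.1% lower in HOXA9 OFF cells. In CAF-1 OFF cells they were 10.5% and 3.50%. The part of these cell states in the enzyme results was not tested.

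The genes whose profile over the 8 libraries was closest to that of Alas1 were B3gnt8, Glrx and Gsr. Their root mean square differences in centred log2 CPM were 0.10, 0.12 and 0.13 among 7959 genes whose log2 CPM averaged 4 or more, where Alas1 itself had an SD of 0.89. Glrx was at 55.3 and 41.1 CPM in uninduced and 204 and 162 in HOXA9 OFF libraries. Hmox1 was matched less closely, by Anxa4, Slc43a2 and Dpp7 at 0.39, 0.42 and 0.46, with an SD of 1.49 for Hmox1. Anxa4 was at 39.3 and 145 CPM in HOXA9 OFF replicates 1 and 2. Nearest to Blvrb were Osbpl3, Acss2 and Kat2b at 0.15, 0.23 and 0.23 among 7960 genes, and Osbpl3 was at 12.4 and 15.0 CPM in uninduced, 35.1 and 53.7 in CAF-1 OFF and 30.9 and 52.6 in HOXA9 OFF libraries.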

How the data were processed

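RNA was sequenced by the study in 8 libraries after preparation with a directional NEBNext kit. The authors aligned reads to mm9 with STAR and used HTSeq-count for counting. What they deposited are raw counts per gene symbol, with 5 summary entries per library that were kept apart (reads in no gene made up 14.6% in IPTG control replicate 1 and 5.30% to 7.79% elsewhere). The annotation version and the strand setting are not given in the sources used here.

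Counts were filtered with filterByExpr, scaled by TMM (factors 0.894 to 1.06) and tested with edgeR 4.0.16 in R 4.3.3. A quasi-likelihood model with 1 mean for each group was fitted to all 8 libraries, and contrasts were adjusted by Benjamini-Hochberg over the genes tested. Following the study's methods, genes with an FDR under 0.05 and a 1.5-fold change were called. Standard errors were derived from the F statistic. The biological coefficient of variation was 18.9%. The fit was also run on simulated counts with known changes, and its recovery of them is not reported here. Replicates of a group differed beyond sampling noise.

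The 9 enzymes and the lists were chosen with earlier results of these data known. Named besides them were other enzymes of the pathway, up to 4 called genes per list and direction whose log2 CPM averaged 2 or more, defining markers, and the 3 closest profiles to Alas1, Hmox1 and Blvrb. Mrc1, C1qb, Mpo, Hbb-b2, Epor, Epb4.2 and B4galt3 were named after their values were seen. Flvcr1 and Flvcr2 are not analysed here, and some listed genes are not reported here. Alternatives were other scalings, filters, tests and thresholds, the compared groups alone, the replicate number as a block, each library left out, IPTG control as the reference of HOXA9 OFF, and the union of all exons as length. DESeq2 1.42.0 served as the alternative test and source of size factors.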

Additional observations from a re-analysis of the deposited data

How the results depend on the processing

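Hmox1, Alas1, Alad, Cpox and Blvrb kept their direction and call in HOXA9 OFF against uninduced cells under all 19 alternatives, with log2 fold changes of 1.82 to 3.63, 1.58 to 2.28, -1.5 to -1.27, -1.46 to -1.11 and 1.48 to 1.99. Ppox lost its call with library size alone (0.42), no filter (0.58, edgeR FDR 0.0145) and FDR 0.01 with 2-fold. With 1 library left out, 5 to 6 enzymes were called in HOXA9 OFF against uninduced cells and 5 between CAF-1 OFF and HOXA9 OFF cells, where FDR 0.01 with 2-fold left 4. Calls in CAF-1 OFF cells rested on Blvrb and were fewer: 0 under FDR 0.01 with 2-fold against uninduced cells and 0 against IPTG control, and 0 to 1 with 1 library left out in each (0 without uninduced replicate 1 or CAF-1 OFF replicate 2, and, against IPTG control, 0 without either of its replicates or CAF-1 OFF replicate 2). Without uninduced replicate 1 the calls over all genes in CAF-1 OFF cells went from 1836 to 157.

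Values that were not called changed sign in 4 cases with all libraries kept and in 11 with 1 left out. With library size alone these were Cpox against IPTG control (0.02) and Fech and Blvrb between the treatments (0.1 and 0.11), and with no filter Alad in CAF-1 OFF cells (0). With 1 library left out, against uninduced cells CAF-1 OFF gave such values for Alad (-0.02, 0 and -0.09), Cpox (-0.02, of a range from -0.02 to 0.29) and Uros (-0.01, range -0.01 to 0.26). Against IPTG control they were Alad (-0.06, range -0.06 to 0.14), Urod (0.07, range -0.2 to 0.07) and Hmox1 (0.02, range -1.34 to 0.02). Between the treatments they were Urod (0) and Blvrb (0.13 and 0.15, range -0.41 to 0.15). Library size alone moved the median of all genes in HOXA9 OFF cells from 0.01 to -0.18 and between the treatments from 0.04 to 0.27. The calls were then 2715 higher and 3701 lower in place of 3293 and 2886, and 3949 and 2064 in place of 2898 and 2797. With the union of all exons as length, CPM per kilobase in uninduced and HOXA9 OFF cells were 11.5 and 4.63 for Alad, 4.49 and 3.91 for Uros, 23.6 and 21.6 for Urod, 5.5 and 8.39 for Ppox and 4.82 and 16.3 for Blvrb, which put Cpox above Urod, Fech above Alad, Fech and Hmox1 above Ppox and Blvrb above Uros in uninduced cells, and Fech and Cpox above Ppox and Alad above Uros in HOXA9 OFF cells. The cause of these changes was not tested beyond what each alternative leaves out or rescales.

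The labels do not say what same-numbered replicates share, and the study mentions RNA-seq of independent sub-clones without tying them to the numbers. Deviations of same-numbered libraries correlated at -0.04 to 0.48 over the group pairs. With the replicate block the enzymes called were 1 (CAF-1 OFF) and 6 (HOXA9 OFF) against uninduced cells, 0 in IPTG control, 1 against IPTG control and 5 between the treatments, the same counts as without it.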
